A study of Rattus norvegicus with 6 samples.

Results

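The miRNAs described here are the arms of miR-122, miR-192 and miR-194, a set known from liver and from blood serum. They were chosen by name from the deposited count table, and 4 of its 1071 rows belong to them, namely rno-miR-122-5p, rno-miR-192-5p, rno-miR-194-5p and rno-miR-194-3p (written below without the prefix for rat). Of these 4, 3 passed the filter on low counts and were tested, and miR-194-3p did not. miR-122-3p is not analysed here, so the arm ratio of miR-122 is not given. The study set 3 libraries from extracellular vesicles (EV, named exosomes in the design text) of rat sciatic nerve fibroblasts against 3 control libraries from RNA inside the same kind of cell (Intracellular). All 6 were labelled wild type, untreated and batch 1. Not given in the sources used here were strain, age, sex, culture medium, the way vesicles were isolated and whether each replicate was a culture or animal of its own. The p-values below thus reflect spread among these libraries alone, and that spread may be technical.

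A miRNA guides a silencing complex to messenger RNAs that pair with its seed, the bases near its 5′ end. miR-122 is made almost only in hepatocytes, where it is the dominant miRNA and acts on cholesterol and fatty acid metabolism. It circulates in blood and rises there after liver injury. miR-192 and miR-194 are made together from shared primary transcripts in epithelia of gut and kidney and in liver, and p53 induces both in human cells. Serum added to culture media can bring miRNAs of its own, and the mature miR-122-5p sequence is conserved among mammals, so a count of it does not tell the species of its source. No library of cell-free medium was analysed here. RNA brought by the medium and RNA released by the fibroblasts therefore cannot be told apart.

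The mature sequences are shown because the seed decides which rows could be confused with one another or act alike. They are RefSeq's (build GRCr8), written 5′ to 3′ with the seed, bases 2 to 8, in capitals.
miR-122-5p: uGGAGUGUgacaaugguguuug
miR-192-5p: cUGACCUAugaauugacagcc
miR-215: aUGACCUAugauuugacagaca
miR-194-5p: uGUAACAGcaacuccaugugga
The deposited sequence of each of these rows was identical to RefSeq's, with T written for U. miR-215 is not a member but shares the seed UGACCUA with miR-192-5p, and the pair had the same base at 18 of 21 positions counted from the 5′ end. No other row among the 659 with a deposited sequence held any of these seeds, and the 412 rows without a sequence could not be searched. In GRCr8, miR-122-5p lies on the plus strand at chr18:61028831-61028852. miR-192-5p lies on the plus strand at chr1:212994232-212994252, next to the copy of miR-194-5p at chr1:212994038-212994059. A further copy of miR-194-5p, at chr13:99382730-99382751, lies next to miR-215 at chr13:99383003-99383024. The copies of miR-194-5p have the same mature sequence, so its counts cannot be assigned to a locus. The submitters' processing notes name the build Rnor_6.0, and these positions were not converted to it.

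The EV libraries held 81211 to 105578 counts and the Intracellular libraries 1839047 to 8859302, so that 1 count was worth 9.47 to 12.3 CPM (counts per 1000000 of the library's total) in the EV libraries, against 0.113 to 0.544 CPM inside the cells. The fibroblast label was checked against 10 miRNAs of fibroblasts and mesenchymal cells, which took 45.4% to 47.7% of counts in EV and 48.3% to 50.1% in Intracellular libraries. Without miR-143-3p, the most abundant of them, the others took 26.8% to 27.8% of EV counts and 26.6% to 27.3% of Intracellular counts. Much of that was miR-21-5p, at 12.2% to 13.4% of EV and 14.5% to 16.6% of Intracellular counts. miR-21-5p is also in the list of serum miRNAs used below. Another of the 10, miR-10b-5p, was nearly absent, with 1 count in EV and 44 in Intracellular libraries in all. Intracellular replicate 1 differed from the others in its TMM factor, which scales libraries to one another in the test. It was 0.557 there, against 0.963 and 0.935 in Intracellular replicates 2 and 3. The level, fold change and ratios of miR-122-5p are given with and without this library.

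miR-122-5p was far more abundant in EV than in Intracellular libraries, while the other tested members did not pass the test. miR-122-5p stood at 11476, 11158 and 13723 CPM in EV replicates 1, 2 and 3, from 932, 1178 and 1267 counts. Inside the cells, replicates 1, 2 and 3 held 344.7, 117.7 and 121.7 CPM of it, from 634, 390 and 1078 counts. The groups did not overlap, and the lowest EV library was above the highest Intracellular one by far more than the spread within EV. That spread was a coefficient of variation of 11.5% in EV libraries and 66.7% in Intracellular libraries, where replicate 1 was 2.88 times the mean of the others. EV libraries averaged 12119 ± 1398 CPM, against 194.7 ± 129.9 CPM for Intracellular libraries (SD, n = 3 each). The Intracellular mean was thus 1.61% of the EV mean. Without Intracellular replicate 1 it was 119.7 CPM, or 0.988% of the EV mean. In TMM-scaled CPM the means were 9686 in EV and 290.6 in Intracellular libraries, or 126.2 without Intracellular replicate 1, which is 1.30% of the EV mean. miR-122-5p was the only member to pass the test, at 5.09 on the log2 scale for EV over Intracellular libraries (SE 0.91; adjusted p = 0.0128 by edgeR). With total counts it came to 5.97 (edgeR adjusted p = 1.12e-06). With TMM its fold change ranked 21 among all 328 tested miRNAs and 3 among the 290 of them that are known rather than predicted. Among all 328 tested miRNAs, 25.6% were called higher in EV and 17.1% lower with TMM. Scaled by total counts, 32.6% were called higher and 0.915% lower. For the low level of miR-122-5p in the bulk Intracellular libraries, few cells holding it and little of it per cell cannot be told apart. Neither can be told apart from RNA brought by the medium.

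**Figure D1:**
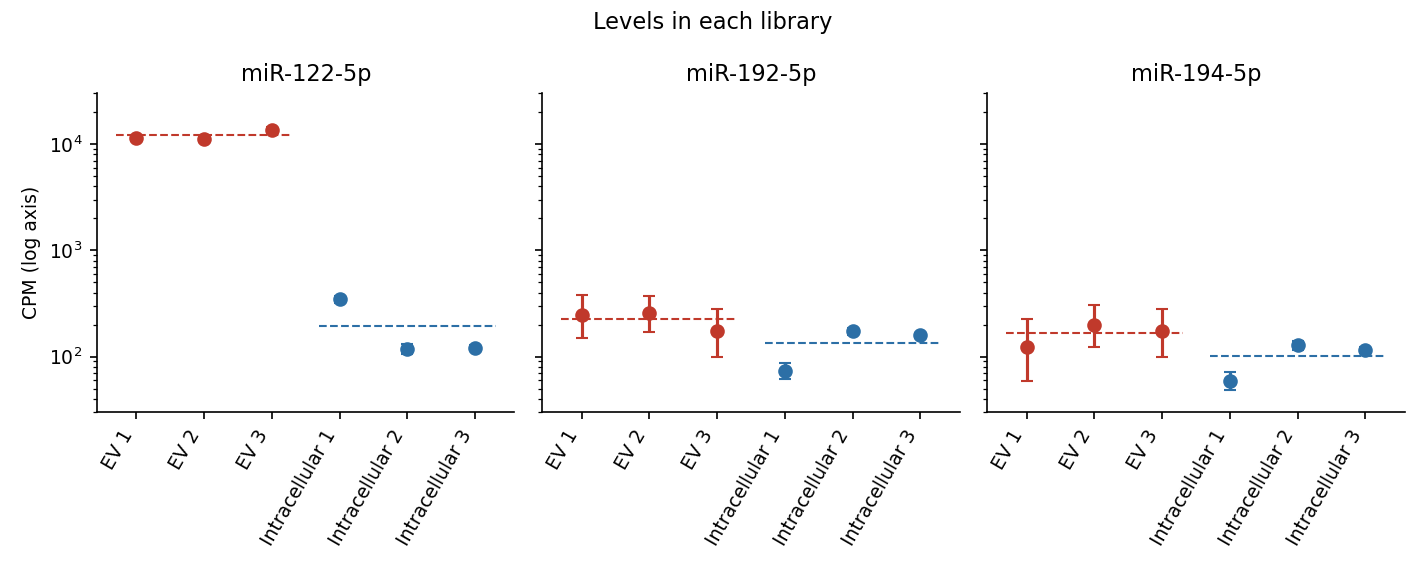
CPM of miR-122-5p, miR-192-5p and miR-194-5p (log axis) in each EV library (red) and each Intracellular library (blue). Bars are exact 95% Poisson intervals, which cover counting error only, and dashed lines are group means. miR-122-5p sits at 11158 to 13723 CPM in the EV libraries and at 117.7 to 344.7 CPM in the Intracellular ones, while miR-192-5p and miR-194-5p sit at 58.7 to 255.7 CPM throughout.

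By rank, miR-122-5p was the 17th, 17th and 16th most abundant miRNA of EV replicates 1, 2 and 3. In the Intracellular libraries its ranks were 72, 154 and 151, in the same order of replicates. Its neighbours by mean EV level were miRNAs that were also abundant inside the cells. Just above it were miR-125b-5p, with 12898 ± 1230 CPM in EV against 16759 ± 4474 CPM inside the cells, and miR-22-3p, with 12145 ± 724 CPM in EV against 6462 ± 1964 CPM inside the cells. Just below it were miR-127-3p, with 10753 ± 637 CPM in EV against 20469 ± 2425 CPM inside the cells, and miR-99b-5p, with 10604 ± 463 CPM in EV against 10331 ± 2196 CPM inside the cells (SD, n = 3 each). In EV the level of miR-122-5p differed from those of miR-22-3p and miR-125b-5p by less than 1 SD. The ranks by mean Intracellular level of these 4 neighbours were 13 to 23, against 130 for miR-122-5p, or 154 for miR-122-5p without Intracellular replicate 1. Of the miRNAs called higher with TMM, only miR-152-3p had more EV counts than the 3377 of miR-122-5p.

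**Figure D2:**
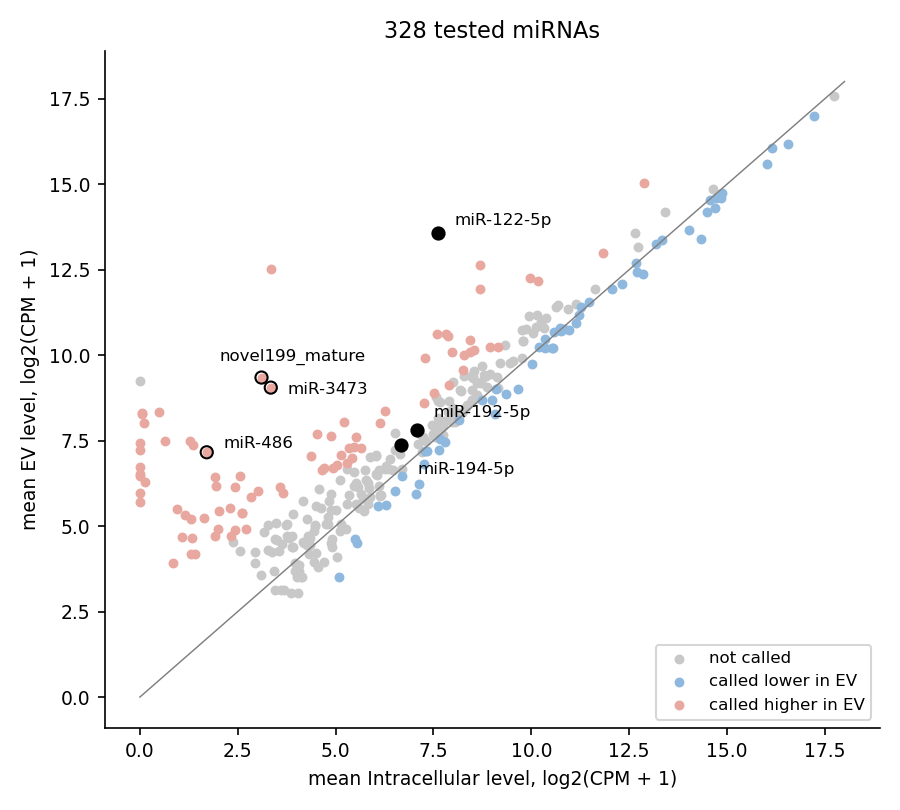
Mean level in EV (vertical axis) against mean level in Intracellular libraries (horizontal axis), both as log2(CPM + 1), for the 328 tested miRNAs, with the line of equal levels. Filled black points are the tested members and open black circles the 3 miRNAs whose profile was nearest to that of miR-122-5p. miR-122-5p lies far above the line at a high EV level, whereas miR-192-5p and miR-194-5p lie close to it.

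miR-192-5p, which shares its seed with miR-215, stood at 246.3, 255.7 and 173.3 CPM in EV replicates 1, 2 and 3. Its Intracellular values, for replicates 1, 2 and 3, were 72.9, 172.6 and 159.3 CPM. The CPM did not overlap, as they did not for 41.8% of all tested miRNAs with EV above, but the gap between EV replicate 3 and Intracellular replicate 2 was smaller than the 10.8 CPM that 1 count was worth in the EV library. After TMM scaling the groups overlapped, at 181.8, 203.5 and 147.8 scaled CPM in EV and 130.9, 179.2 and 170.4 in Intracellular libraries. Its 63 EV counts in all set the precision of these levels. Its EV mean was 225.1 ± 45.1 CPM, against an Intracellular mean of 134.9 ± 54.2 CPM (SD, n = 3 each). On the log2 scale EV over Intracellular libraries came to 0.15 (SE 0.25; adjusted p = 0.664 by edgeR), within the spread between replicates. With total-count scaling, under which the median over all tested miRNAs is 0.55, against -0.06 with TMM, it was 0.74 (adjusted p = 0.188).

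miR-194-5p, made beside miR-192, stood at 123.1, 198.9 and 173.3 CPM in EV replicates 1, 2 and 3, from 10, 21 and 16 counts. Inside the cells, replicates 1, 2 and 3 held 58.7, 127.7 and 116.1 CPM, and EV replicate 1 lay between those libraries. Its EV mean was 165.1 ± 38.5 CPM, against an Intracellular mean of 100.9 ± 36.9 CPM (SD, n = 3 each). EV over Intracellular libraries came to 0.14 on the log2 scale (SE 0.28; adjusted p = 0.723 by edgeR) with TMM and 0.72 (adjusted p = 0.222) with total counts. miR-194-3p, the other arm, had 0 counts in EV and 1 count in Intracellular replicate 3. This was 0.0641% of the 1561 Intracellular counts of both arms (exact Clopper-Pearson 95% interval 0.00162% to 0.356%), and 0 of 47 in EV allows a share of up to 6.38%. Here and below, a count of 0 was taken to allow up to 3 counts, an approximate 1-sided 95% limit. A difference in arm use of miR-194 was thus not detectable at this depth. The interval and the limit cover counting error only, since no molecular identifiers are named.

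miR-215, the seed partner of miR-192-5p, was below the filter, with 0, 2 and 1 counts in EV replicates 1, 2 and 3. It had 8, 23 and 54 counts in Intracellular replicates 1, 2 and 3, at 4.35, 6.94 and 6.10 CPM. At the depth of EV replicate 1, a count of 0 allows up to 36.9 CPM, so that no difference could be seen. By level, the members ran in the order miR-122-5p, miR-192-5p, miR-194-5p in EV, and the Intracellular means had the same order. In EV, miR-192-5p and miR-194-5p overlapped. Inside the cells, neighbours in that order differed by less than the larger SD of the pair, and miR-192-5p was above miR-122-5p in replicates 2 and 3.

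A ratio of counts within a library does not depend on scaling between libraries, although ligation and PCR prefer some sequences, so it is not a ratio of molecules. The ratio of miR-122-5p to miR-192-5p was 46.6, 43.6 and 79.2 in EV replicates 1, 2 and 3. For Intracellular replicates 1, 2 and 3 the ratio was 4.73, 0.682 and 0.764. The groups did not overlap, and the lowest EV ratio was 9.22 times the highest Intracellular one. The mean log2 ratio was 5.73 ± 0.46 in EV, against 0.43 ± 1.57 inside the cells (SD, n = 3 each), a difference of 5.30 (2-sided exact permutation p = 0.1, the smallest that 3 against 3 libraries allow, and 0.133 adjusted over 4 ratios). Without Intracellular replicate 1 the difference was 6.20. Inside the cells, miR-122-5p was thus below miR-192-5p in replicates 2 and 3, where the exact 95% intervals of the ratio, 0.598 to 0.777 and 0.705 to 0.828, lay under 1, and above it in replicate 1, with an interval of 3.92 to 5.74.

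The ratio of miR-122-5p to miR-194-5p also separated the groups, at 93.2, 56.1 and 79.2 in EV replicates 1, 2 and 3. Its values in Intracellular replicates 1, 2 and 3 were 5.87, 0.922 and 1.05. The difference of mean log2 ratios was 5.34 (exact permutation p = 0.1, adjusted 0.133), or 6.20 without Intracellular replicate 1. Against miR-143-3p, the most abundant miRNA of every library and a mesenchymal one, miR-122-5p had a ratio of 0.0549, 0.0561 and 0.0748 in EV replicates 1, 2 and 3. In Intracellular replicates 1, 2 and 3 this ratio was 0.00150, 0.000541 and 0.000581. The lowest EV ratio was 36.7 times the highest Intracellular one, and the difference of mean log2 ratios was 6.30 (exact permutation p = 0.1, adjusted 0.133), or 6.77 without Intracellular replicate 1.

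The cluster partners kept close to one ratio. Counts of miR-192-5p over miR-194-5p were 2.00, 1.29 and 1.00 in EV replicates 1, 2 and 3. The Intracellular values, 1.24, 1.35 and 1.37 for replicates 1, 2 and 3, lay inside the EV range. The mean log2 ratio was 0.44 ± 0.49 in EV, against 0.40 ± 0.08 inside the cells (SD, n = 3 each), and its difference of 0.04 was smaller than either SD (exact permutation p = 0.9, adjusted 0.9). The EV values rest on 10 to 27 counts per miRNA, and their exact 95% intervals ran from 0.468 at the lowest to 4.78 at the highest, so a change of moderate size would not have been seen.

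**Figure D3:**
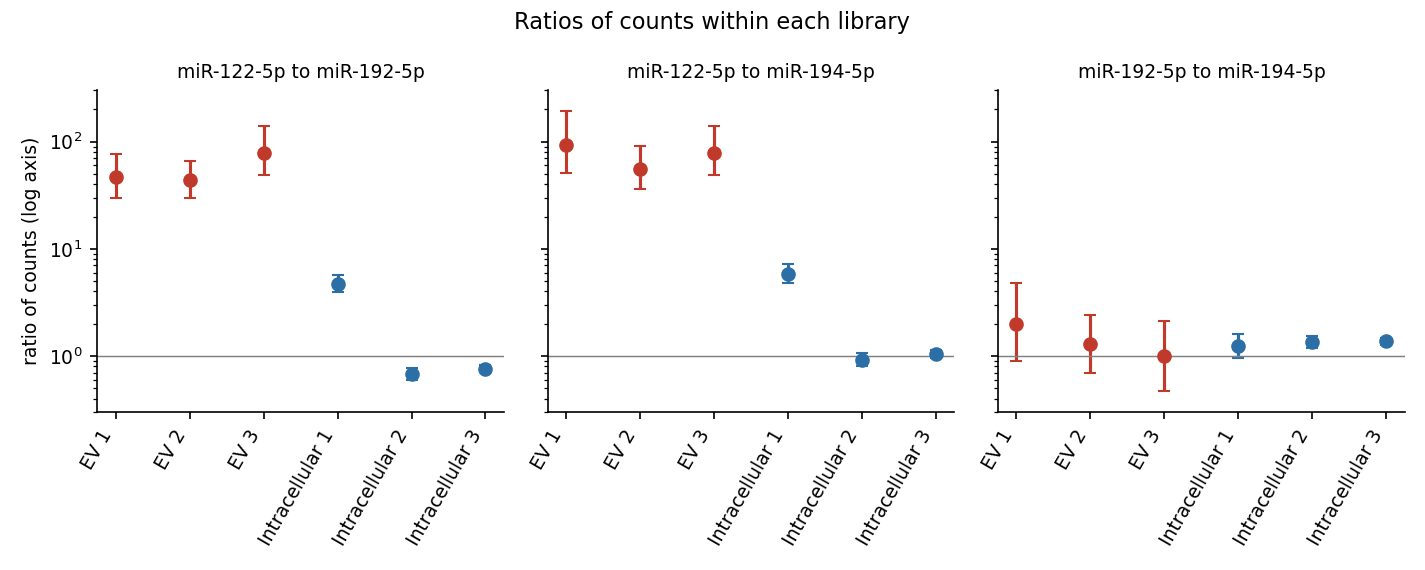
Ratio of counts within each EV library (red) and each Intracellular library (blue), on a log axis, with exact 95% intervals that cover counting error only and a grey line at 1. Both ratios of miR-122-5p are 43.6 or more in the EV libraries and 5.87 or less in the Intracellular ones, with Intracellular replicate 1 above replicates 2 and 3, whereas miR-192-5p to miR-194-5p stays between 1.00 and 2.00.

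Intracellular replicate 1 moved with the results on miR-122-5p. In that library miR-122-5p was 2.88 times the mean of Intracellular replicates 2 and 3 in CPM, while miR-192-5p was 0.439 times and miR-194-5p 0.482 times. miR-143-3p was 1.08 times. After TMM scaling these ratios were 4.91 for miR-122-5p, 0.749 for miR-192-5p, 0.822 for miR-194-5p and 1.84 for miR-143-3p. Across all tested miRNAs the median log2 ratio of that library to the mean of the others was -0.74 in CPM, so in CPM miR-192-5p and miR-194-5p were lower there, as most miRNAs were, and miR-122-5p was higher. Replicate 1 held the highest CPM of the Intracellular libraries for 29 of 328 tested miRNAs, or 8.84%, and for 12 of the 84 called higher in EV, or 14.3%. After TMM scaling, it was highest for 37.5% of tested miRNAs and 34.5% of those called higher. Without this library the log2 fold change of miR-122-5p was 6.31 (edgeR adjusted p = 1.61e-26) with the tested miRNAs kept. Without any 1 of the other 5 libraries, it was 4.71 to 5.18, also with the tested miRNAs kept. With the filter applied again, the call was lost when EV replicate 1 (5.11, adjusted p = 0.0518) or EV replicate 2 (5.11, adjusted p = 0.0693) was left out, in a range of adjusted p of 1.61e-26 to 0.0693 over 23 alternatives. With the Intracellular libraries thinned to 92329 counts, the median EV total, miR-122-5p was called in 20 of 20 draws, with log2 fold changes of 5.05 to 5.71. In the same draws miR-192-5p was called in 1 and miR-194-5p in 0.

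**Figure D4:**
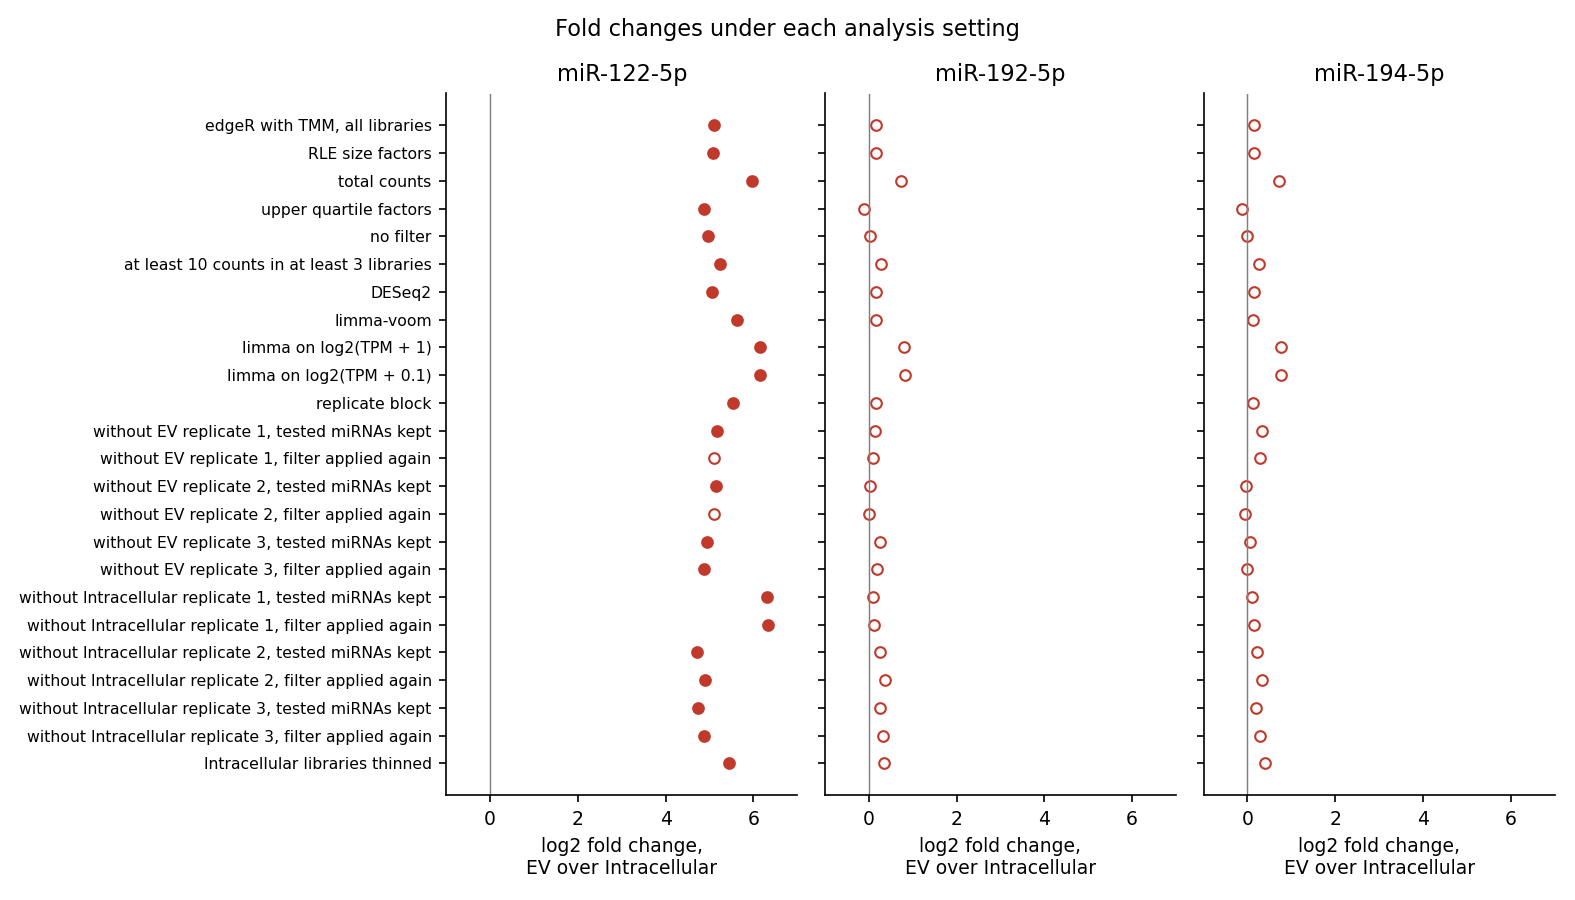
Log2 fold change of EV over Intracellular libraries for the 3 tested members under each analysis setting, with filled points at an adjusted p under 0.05. miR-122-5p lies between 4.71 and 6.33 and is called in all but 2 of the 23 alternatives, while miR-192-5p and miR-194-5p lie between -0.13 and 0.81 and are called in 0, with thinning plotted as the median of its 20 draws.

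The miRNAs with the profile most like that of miR-122-5p were found by the root mean square difference of log2(CPM + 1), each centred on its own mean over the 6 libraries. The nearest was miR-486, an erythroid miRNA, at 0.356, against a median of 2.92 over all tested miRNAs. It stood at 172.4, 123.1 and 129.97 CPM in EV replicates 1, 2 and 3, from 39 counts. Inside the cells it stood at 4.35, 1.21 and 1.24 CPM for the same numbers, from 23 counts in all. Its highest Intracellular value was in replicate 1, but miR-486 was picked on these same values, so this is no separate match. Its log2 fold change was 5.69 (edgeR adjusted p = 3.06e-07). Next came the predicted miRNA novel199_mature at 0.455, with 648.5 ± 215.5 CPM in EV against 7.61 ± 3.64 CPM inside the cells, and miR-3473 at 0.608, with 528.8 ± 181.9 CPM in EV against 9.15 ± 1.83 CPM inside the cells (SD, n = 3 each). Their log2 fold changes were 5.94 and 5.29 (edgeR adjusted p = 8.52e-06 and 6.38e-10). miR-192-5p was nearest to miR-151-3p (0.106), miR-26b-5p (0.129) and miR-872-5p (0.141), and miR-194-5p to novel2_mature (0.145), miR-674-5p (0.151) and miR-125a-3p (0.158), none of which was called. The measure takes in the difference between groups as well as the spread within them. The fold changes and calls of these nearest miRNAs thus follow largely from how they were picked, and are no separate result.

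Other miRNAs abundant in liver were mixed with TMM. Of 5 tested, 2 rose and 2 fell in EV, with a median of 0.31 on the log2 scale, against -0.06 over all tested miRNAs. The called shares were 40.0% higher and 40.0% lower, against 25.6% and 17.1% over all tested miRNAs. With total counts 3 were called higher and 0 lower. That is 60.0% higher, against 32.6% higher and 0.915% lower over all tested miRNAs. miR-148a-3p, which shares its seed with miR-152, rose by 2.02 on the log2 scale (SE 0.23; adjusted p = 6.82e-07 by edgeR), to 1520 ± 119 CPM in EV, against 233.1 ± 6.9 CPM in Intracellular libraries (SD, n = 3 each). miR-378a-3p, whose gene lies in an intron of Ppargc1b, rose by 2.65 on the same scale. miR-101a-3p and miR-101b-3p had log2 fold changes of -0.85 and -0.69 and were called lower with TMM, but not with total counts. miR-22-3p had a log2 fold change of 0.31 (edgeR adjusted p = 0.258) and was called higher with total counts, at 0.91. The liver miRNA miR-802 is not analysed here.

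Among 13 tested miRNAs that are abundant in serum or plasma, 5 rose and 3 fell in EV with TMM scaling, and 5 rose and 0 fell with total counts. That is 38.5% higher with either scaling, against 25.6% with TMM and 32.6% with total counts over all tested miRNAs, and 23.1% lower with TMM, against 17.1%. The list's median log2 fold change was -0.26 with TMM. The 5 that rose were miR-486 (5.69), miR-451-5p (3.71), miR-423-5p (3.27), miR-92a-3p (2.53) and miR-320-3p (2.39), of which miR-486, miR-451-5p and miR-92a-3p rest on 39, 10 and 17 EV counts. Called lower were miR-21-5p (-0.97), miR-103-3p (-0.67) and miR-25-3p (-0.53), of which miR-25-3p was above 0 with total counts, at 0.10. miR-92a-3p was not called without EV replicate 1 (1.98, edgeR adjusted p = 0.0515). As a whole the list took 14.8% to 16.0% of counts in EV and 16.0% to 17.99% in Intracellular libraries. Most of this was miR-21-5p, which is also in the fibroblast list, and the direction turned without it, to 2.41% to 2.64% of EV counts, against 1.39% to 1.54% of Intracellular counts. Much of that remaining difference was miR-423-5p alone, at 6359 ± 505 CPM in EV against 414.6 ± 35.5 CPM inside the cells, so it does not describe the serum list as a group. miR-223-3p, a blood cell miRNA and also a member of that list, had 0 EV counts, which over the 279118 pooled EV counts allows up to 10.7 CPM.

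Markers of other cell types were set beside these values, and their part in the level of miR-122-5p was not tested. Their counts of calls stand against the same 25.6% higher and 17.1% lower over all tested miRNAs with TMM. The markers named here with 0 EV counts stood at 0.038 to 0.75 CPM inside the cells. In EV, 0 of the 279118 pooled counts allows up to 10.7 CPM, so no difference could be seen for them. Of 4 erythroid miRNAs both that were tested, miR-486 and miR-451-5p, rose, and miR-144-3p and miR-144-5p had 0 EV counts. The 4 together took 0.0152% to 0.0222% of EV counts and 0.000226% to 0.000653% of Intracellular counts, against 1.12% to 1.37% for miR-122-5p alone in EV. Of 9 miRNAs of gut, kidney and other epithelia, which include miR-215, none passed the filter and 6 had 0 EV counts. Among these 6 were miR-200a-3p, miR-200b-3p, miR-200c-3p, miR-141-3p and miR-429, which define epithelial cells, and also miR-203b-3p. The list took 0.00284% to 0.00433% of EV counts and 0.000870% to 0.00120% of Intracellular counts. Its EV share rests on 6 counts of miR-203a-3p, 3 of miR-215 and 1 of miR-375-3p over all EV libraries, so these shares cannot be compared. Of 6 leukocyte miRNAs 3 were tested and 0 called with TMM. These were miR-155-5p (0.63), miR-146a-5p (-0.35) and miR-142-3p (-1.13, from 4 EV counts). With total counts miR-155-5p was called higher (1.21), while miR-146a-5p (0.19) and miR-142-3p (-0.55) were not called. In the same list miR-223-3p and miR-142-5p had 0 EV counts. That list took 0.0563% to 0.0767% of EV counts and 0.0228% to 0.0781% of Intracellular counts. Both endothelial miRNAs, miR-126a-3p and miR-126a-5p, were tested and 0 were called, at 0.0260% to 0.0436% of EV counts and 0.0141% to 0.0390% of Intracellular counts. Of 2 tested muscle miRNAs, miR-206-3p rose (4.52, from 25 EV counts) and miR-499-5p fell (-1.48, but -0.89 and not called with total counts). The untested muscle miRNAs did not share the rise of miR-206-3p visibly. miR-1-3p and miR-133a-3p had 2 and 1 EV counts, and miR-133b-3p and miR-208b-3p had 0. That list took 0.0111% to 0.0246% of EV counts and 0.00897% to 0.0182% of Intracellular counts. In the list of glial and neuronal miRNAs, 1 of 4 tested rose, miR-138-5p (3.28, from 7 EV counts). It was not called without EV replicate 2 (2.74, edgeR adjusted p = 0.0502, tested miRNAs kept). Nor was it called with thinned Intracellular libraries (median edgeR adjusted p = 0.119). Of the 4 tested, 2 fell with TMM, miR-9a-5p (-0.89, but -0.34 with total counts) and miR-128-3p (-0.62, but 0.03 with total counts), and neither was called with total counts. The other tested member, miR-338-3p (-0.03, from 6 EV counts), was not called, and miR-219a-5p had 0 EV counts. The glial and neuronal list took 0.224% to 0.260% of EV counts and 0.159% to 0.330% of Intracellular counts. Of 9 tested fibroblast miRNAs 3 rose, miR-29a-3p (1.70), miR-214-3p (1.53) and miR-152-3p (1.51). With TMM, 4 were called lower, miR-199a-5p (-1.04), miR-21-5p (-0.97), miR-199a-3p (-0.78) and miR-145-5p (-0.53, but 0.08 with total counts), and 0 were with total counts.

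**Figure D5:**
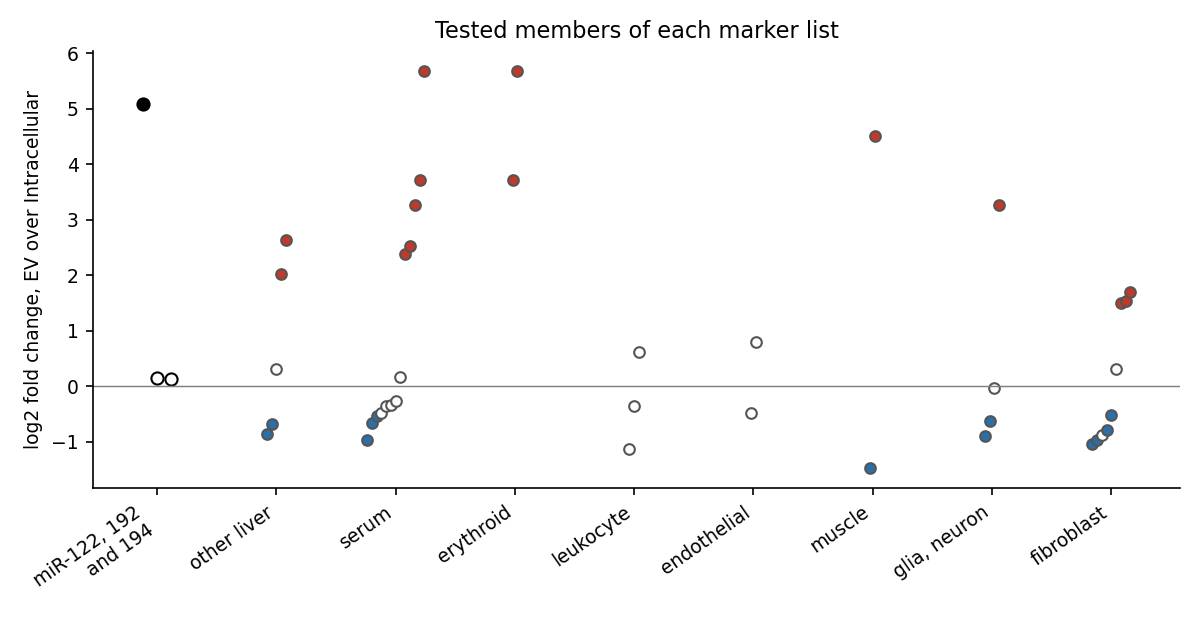
Log2 fold change of EV over Intracellular libraries for the tested members of miR-122, miR-192 and miR-194 (black filled point, called; black open points, not called) and of each marker list (red, called higher; blue, called lower; white, not called), by edgeR with TMM. A miRNA in several lists is drawn in each. miR-122-5p at 5.09 stands between the muscle miRNA miR-206-3p at 4.52 and the erythroid and serum miRNA miR-486 at 5.69. miR-192-5p and miR-194-5p lie at 0.15 and 0.14.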

How the data were processed

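A miRNA isolation kit, ligation of an adapter to each end, PCR and a gel cut gave the libraries, per the labels' protocols. The submitters' processing notes name cutadapt and the build Rnor_6.0. Not given in the sources used here were aligner, miRNA database and counting program. The deposited table of counts holds whole-number counts per mature miRNA. The TPM table deposited by the authors equals those counts scaled to 1000000 per library, with a largest difference of 4.78e-05, and served only for the limma alternatives.

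Counts of all rows were tested by edgeR 4.0.16 (R 4.3.3), with TMM, filterByExpr (minimum count 10, minimum total 15), the robust quasi-likelihood test and no replicate block, EV minus Intracellular, 2-sided. A call is a Benjamini-Hochberg adjusted p under 0.05 over 328 tested miRNAs. SE came from the F statistic. The procedure was tested on simulated data. Ratios used a prior count of 0.5 on the log2 scale and exact permutation tests. Alternatives used DESeq2 1.42.0, limma 3.58.1, other scalings and filters, thinning and libraries left out. No libraries of a group agreed within counting noise, the lowest chi-square divided by its degrees of freedom being 3.67.

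The members and lists were chosen with earlier results of these data known. Named miRNAs were the members, rows sharing their seeds, called list members, the 3 nearest profiles of each tested member and the 2 neighbours of miR-122-5p on either side by EV level. The rule also takes the 4 most abundant miRNAs of a list. Of those not called, only miR-22-3p, miR-143-3p, miR-155-5p, miR-146a-5p, miR-142-3p, miR-126a-3p, miR-126a-5p and miR-338-3p were named, a choice made after their values were seen. Markers with 0 EV counts were named as such, and miR-10b-5p, miR-203a-3p, miR-375-3p, miR-1-3p and miR-133a-3p were named for their low counts.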

Additional observations from a re-analysis of the deposited data

How the results depend on the processing

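Of the members, miR-122-5p kept its direction under all 23 alternatives, and its log2 fold change was 4.71 to 6.33 with 1 library left out, the higher value without Intracellular replicate 1. It lost its call without EV replicate 1 and without EV replicate 2 with the filter applied again (5.11 in both). miR-192-5p had a log2 fold change of -0.10 with upper quartile factors and of -0.0048 to 0.36 with 1 library left out. miR-194-5p was at -0.13 with upper quartile factors, -0.0030 with no filter and -0.064 to 0.34 with 1 library left out, among them -0.026 without EV replicate 2 (tested miRNAs kept) and -0.0044 without EV replicate 3 (filter applied again). Neither was called under any alternative, with thinning taken as the median over 20 draws. miR-192-5p was called in 1 of those draws. The 3 log2 ratios with miR-122-5p on top kept their direction, at 4.81 to 6.20 (to miR-192-5p), 4.86 to 6.20 (to miR-194-5p) and 6.04 to 6.77 (to miR-143-3p) with 1 library left out. That of miR-192-5p to miR-194-5p was -0.22 to 0.26. The arm ratio of miR-122 was planned and not run, since miR-122-3p is not analysed here.

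With TMM 84 miRNAs were called higher and 56 lower. With 1 library left out, 50 to 91 were higher and 18 to 58 lower, with lower calls at 26 without EV replicate 1 (filter applied again) and without EV replicate 2 (tested miRNAs kept), and 27 without Intracellular replicate 2 or 3 (filter applied again). With no filter 197 were higher. Lower calls numbered 3 with total counts, 92 with upper quartile factors, 36 with at least 10 counts in at least 3 libraries, 4 and 2 with limma on log2(TPM + 1) and log2(TPM + 0.1), and 22 with thinned Intracellular libraries. With total counts and the limma fits with a pseudocount of 1 and 0.1, the lower calls turned to 0.10, 0.13 and 0.13 for miR-25-3p, 0.027, 0.040 and 0.040 for miR-128-3p and 0.082, 0.13 and 0.13 for miR-145-5p. The cause was not tested. Over the called miRNAs named beside the members, 449 values kept their call, 102 lost it and 9 changed sign.

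With the replicate block, miR-122-5p was at 5.53 (edgeR adjusted p = 0.00199), and 87 miRNAs were higher and 46 lower. The blocked ratio test gave an exact permutation p of 0.25 for miR-122-5p to miR-192-5p, the smallest that 3 pairs allow. Deviations of same-numbered libraries correlated at 0.033, 0.088 and -0.024, so the numbers were not taken as pairs. The EV depth limits miR-192-5p, miR-194-5p and miR-215 to 63, 47 and 3 counts in all.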
